A study of Mus musculus with 16 samples.

Results

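The core circadian clock of the liver was described through the transcripts of 9 genes: Arntl, Clock, Npas2, Per1, Per2, Per3, Cry1, Cry2 and Rora. They were chosen by name, with earlier results of these data known, and each symbol matched 1 of the 78317 genes listed in the deposited tables. The 16 libraries were made from homogenised whole liver of wild-type C57BL/6J mice, an inbred strain, and fall into 4 groups of 4 replicates: females and males, each on normal chow made by LabDiet with 4.5% of its calories as fat, or on Research Diets D12492 (the high fat diet) with 60%. All mice arrived at 6 weeks of age, were housed in groups under 12 h of light and 12 h of darkness, with lights on at Zeitgeber time 0, and ate their diet freely for 10 weeks. The study's stated question is what the high fat diet does to liver RNA in each sex. The makers of the diets differ, so the groups can differ in more than fat content, and the hour of tissue collection is not given in the sources used here. An order of collection that differed between the groups therefore cannot be told apart from diet or sex.

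The clock is a feedback loop of transcription. ARNTL (also called BMAL1) pairs with CLOCK, or with its paralog NPAS2, and activates genes that carry E-box sequences, among them the Per and Cry genes, whose protein products return to the nucleus and repress ARNTL and CLOCK. A second loop runs through nuclear receptors. RORA activates Arntl through ROR elements, and the REV-ERB proteins, encoded by Nr1d1 and Nr1d2, repress it through the same elements. In mouse liver Arntl and Npas2 RNA peak in antiphase to Per and Nr1d1 RNA, so a single sample shows 1 position of the cycle and not its amplitude. Per1 is also induced directly by glucocorticoids and by cyclic AMP signalling.

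The sequences through which these loops are known to act are shown for the genes on which the results turn. They come from RefSeq promoter windows of mouse build GRCm38.p6, each 300 bases long, from 250 bases before to 50 bases after a transcription start. Windows were found for 8 of the 9 genes, all but Per2. The deposited counts were made on GRCm39, so these coordinates are given for the sequences alone. For Per1, Cry1 and Per3 the 250 bases before the start are printed from 5′ to 3′ on the strand of the gene. Capitals mark the E-box CACGTG in Per1. In Cry1 they mark a CACGTG and, before it, the variant CACGTT read on the other strand. In Per3 they mark 2 copies of the D-box TTATGTAA, the sequence bound by DBP and its relatives. The Per1 sequence lies at chr11:69098699-69098948 (plus strand), that of Cry1 at chr10:85185055-85185304 (minus strand) and that of Per3 at chr4:151044666-151044915 (minus strand). For Arntl only the 30 bases around its match to the ROR element defined below are shown, at chr7:113207528-113207557 (plus strand), downstream of its start.
Per1: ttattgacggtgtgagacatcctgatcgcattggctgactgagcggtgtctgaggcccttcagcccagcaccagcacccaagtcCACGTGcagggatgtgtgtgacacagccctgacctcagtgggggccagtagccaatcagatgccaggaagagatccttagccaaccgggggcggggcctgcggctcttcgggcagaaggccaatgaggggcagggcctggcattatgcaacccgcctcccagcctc
Cry1: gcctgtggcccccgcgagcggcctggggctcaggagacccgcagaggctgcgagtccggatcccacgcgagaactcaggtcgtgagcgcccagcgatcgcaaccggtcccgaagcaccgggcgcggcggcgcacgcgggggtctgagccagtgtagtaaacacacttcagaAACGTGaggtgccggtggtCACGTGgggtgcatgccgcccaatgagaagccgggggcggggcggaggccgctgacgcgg
Per3: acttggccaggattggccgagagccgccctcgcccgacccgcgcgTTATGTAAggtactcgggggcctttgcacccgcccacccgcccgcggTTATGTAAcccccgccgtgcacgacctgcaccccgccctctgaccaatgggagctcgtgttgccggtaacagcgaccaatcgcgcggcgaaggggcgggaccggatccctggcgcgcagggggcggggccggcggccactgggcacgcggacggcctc
Arntl: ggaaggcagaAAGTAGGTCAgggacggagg

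The search covered 5 motifs on both strands: the E-box CACGTG, its variant CACGTT, the D-boxes TTATGTAA and TTACGTAA, the cAMP response element TGACGTCA, and the ROR element, an AGGTCA core with AANT directly before it. The CACGTG in Per1 was in 1 of its 2 windows and begins 166 bases before that start, and that in Cry1 begins 60 bases before it. Of 32851 promoter windows of this length, 7.15% held a CACGTG, 4.68% a CACGTT, 1.06% a D-box, 1.79% a cAMP response element and 0.219% a ROR element. The match to the ROR element in Arntl was in 1 of its 2 windows, from base 28 to base 37 after the start. The window of Cry2 held 1 CACGTT, and those of Clock, Npas2 and Rora held none of the 5 motifs. A match is a string of letters, and no match says only that these letters are not in the window.

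Total expected counts per library ran from 22228115 to 41420589, and 8 of the 9 genes passed the filter on low counts. Male high fat diet replicates 2 and 3 stood close to each other: their chi-square statistic per gene was 3.9, against 20.8 or more for every other pair of libraries in a group. They differed by more than sampling noise and were counted as 2 samples, and results with the pair averaged into 1 are given where they matter. The same group was otherwise the most spread: pairs of replicate 1 or 4 with 2 or 3 had 158 to 308, and replicates 1 and 4 had 55.6. No pair in the other groups was above 96.7. The part of this spread in the clock results was not tested. All 5 hepatocyte markers were detected in every group, with Alb between 25496 and 62840 TPM. Summed Kupffer cell and macrophage markers (5 of 5 detected) ran from 268 to 406 TPM in females on high fat diet and from 143 to 197 on normal diet. Sinusoidal endothelial markers in females ran from 82.1 to 95 TPM on high fat diet and from 68.2 to 81.3 on normal diet, and T and B cell markers from 1.79 to 3.96 and from 1.28 to 1.76. In males the hepatocyte sum ran from 38364 to 52449 TPM on high fat diet and from 55048 to 65584 on normal diet. Adipocyte markers (4 listed) summed to 10.9 to 42.8 TPM in males on high fat diet and 5.03 to 9.46 on normal diet, with Cidec reaching 42.2 TPM, and the adipocyte-defining Adipoq was between 0.45 and 1.77 TPM over all libraries. Lep was at 0 in all females on high fat diet. Stellate cell and fibroblast markers in males summed to 157 to 209 TPM on high fat diet and 127 to 146 on normal diet. Pancreatic acinar markers in males summed to 0.62 to 24.7 TPM on high fat diet and 0.22 to 0.43 on normal diet, where Cpa1 and Pnlip were at 0. The part of these differences in the clock results was not tested. In whole liver, fewer cells of a type and less RNA per cell cannot be told apart.

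On high fat diet the repressor genes Per1 and Per2 were lower in both sexes, by 3.36-fold and 1.56-fold in females and by 2.49-fold and 1.81-fold in males. Arntl, the activator, was 3.14-fold higher in males. In females it was 1.81-fold higher and not called, and its changes in the 2 sexes were not shown to differ. Cry1 was 2.83-fold lower in females and was not called in males. It is the 1 gene of the 8 tested whose diet change differed between the sexes by the test of that difference. Per3 and Cry2 were slightly lower in males. Clock and Rora did not pass the test for diet in either sex, and Npas2 was almost absent. A gene was called when edgeR's quasi-likelihood test gave a Benjamini-Hochberg adjusted p under 0.05 over all 14781 genes tested. By this rule 3 of 8 clock genes were called in females, where 11.5% of all genes were called, and all 3 were lower, against 5.76% of all genes lower and 5.74% higher. This split was not kept by limma on log2(TPM + 1), a fit that changes the unit, the test and the scaling between libraries together. By that fit 2 clock genes were called higher (Arntl and Cry2) and 2 lower (Per1 and Cry1). Of the 2970 genes it called in females, 2684 were higher. In males 5 of 8 were called, 4 lower and 1 higher, against 11.4% of all genes in either direction, 5.36% lower and 6.03% higher, and on log2(TPM + 1) 1 was higher and 2 were lower. The diet groups did not overlap for 3 of 8 genes in females, against 18.3% of all genes, and for 5 of 8 in males, against 18.5%.

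**Figure D1:**
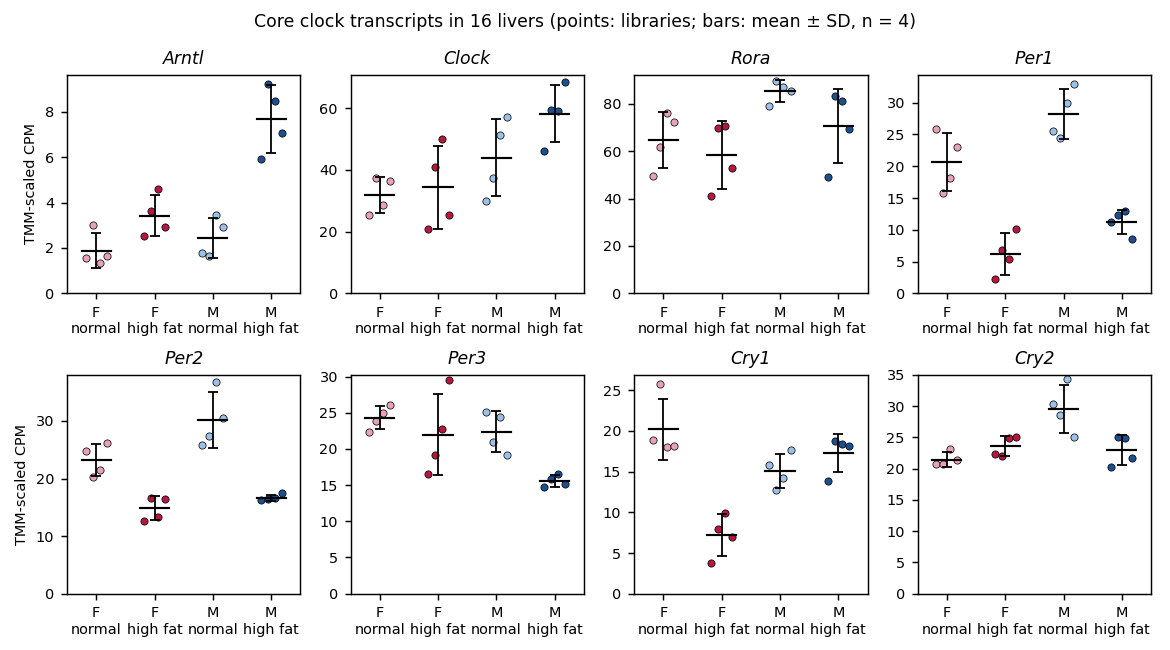
Levels of 8 clock transcripts in each library, in TMM-scaled CPM (vertical axes from 0), for females (F) and males (M) on normal or high fat diet; points are libraries and bars the mean ± SD of 4. All 4 male high fat diet libraries lie above all normal diet libraries for Arntl, and all high fat diet libraries of both sexes lie below their normal diet libraries for Per1 and Per2.

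The positive arm was examined first. Arntl (ENSMUSG00000055116.9) had 5.91, 9.23, 8.49 and 7.08 CPM (counts relative to the scaled total of the library) in male high fat diet replicates 1 to 4, and 1.77, 1.66, 3.46 and 2.92 CPM in males on normal diet. The lowest high fat diet value was above the highest normal diet value. Arntl rose by 1.65 ± 0.28 on the log2 scale (± SE here and below; adjusted p = 0.00111, edgeR). With the close pair of replicates averaged it was 1.58, with an adjusted p of 0.00386. In females Arntl had 2.51, 3.64, 4.6 and 2.94 CPM on high fat diet and 1.56, 3, 1.32 and 1.65 CPM on normal diet. These ranges overlapped through normal diet replicate 2 alone, at 3 CPM. The log2 fold change of 0.85 ± 0.29 had an adjusted p of 0.0593, and over 25 other settings the adjusted p ran from 0.0145 to 0.146. It passed the threshold in 8 of them, for instance without female normal diet replicate 2 (1.19, adjusted p = 0.0174). The female and male changes of Arntl were not shown to differ (interaction -0.80 ± 0.40, adjusted p = 0.41).

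Clock (ENSMUSG00000029238.12), the partner of ARNTL, spread widely within groups. It had 20.9, 40.9, 50.1 and 25.3 CPM in females on high fat diet and 25.5, 37.3, 28.6 and 36.3 CPM on normal diet. In males it had 46, 59.3, 59.2 and 68.5 CPM on high fat diet and 29.8, 37.4, 51.4 and 57 CPM on normal diet. The diets overlapped in both sexes, with log2 fold changes of 0.10 ± 0.26 in females (adjusted p = 0.833) and 0.41 ± 0.26 in males (adjusted p = 0.325). The sign in females turned to -0.13 without high fat diet replicate 3.

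Npas2 (ENSMUSG00000026077.16), the paralog that can stand in for CLOCK, did not pass the filter. It had 7, 16, 3.21 and 3 expected counts in female high fat diet replicates 1 to 4. In the other 3 groups it had at most 3 counts in any library, and 14 of 16 libraries held 3 counts or fewer after rounding, which is at the floor of 3 counts used here. No fold change is given for it. Per transcript length it was between 0.01 and 0.18 TPM, below every other clock gene in every group.

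Rora (ENSMUSG00000032238.18), the activating nuclear receptor, was the first or second of the clock genes in TPM in every group. It had 40.9, 69.6, 70.4 and 52.8 CPM in females on high fat diet and 49.6, 61.6, 76.1 and 72.1 CPM on normal diet. Males had 49, 83.2, 81.1 and 69.4 CPM on high fat diet and 78.9, 89.6, 87.2 and 85.4 CPM on normal diet. Neither difference passed the test (log2 fold change -0.15 ± 0.18, adjusted p = 0.629 in females, and -0.27 ± 0.18, adjusted p = 0.355 in males). Male high fat diet replicate 1 stood lowest in its group.

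Among the repressors, Per1 (ENSMUSG00000020893.18) had the largest fold change of the 8 genes in females. It had 2.24, 6.85, 5.46 and 10.2 CPM in females on high fat diet and 25.9, 15.8, 18.1 and 23 CPM on normal diet. In males it had 11.2, 12.4, 12.9 and 8.63 CPM on high fat diet and 25.6, 24.5, 29.9 and 32.9 CPM on normal diet. The diets lay apart in both sexes. Per1 fell by 1.75 ± 0.31 on the log2 scale in females (adjusted p = 0.00278, edgeR) and by 1.32 ± 0.30 in males (adjusted p = 0.0114). The call held in every other setting run in both sexes, with the adjusted p at most 0.0219 in females and 0.0445 in males. Without female high fat diet replicate 1, the lowest library, its female log2 fold change was -1.46 (adjusted p = 0.000737).

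Per2 (ENSMUSG00000055866.10) had standard deviations of 3.13% to 16.1% of the mean within groups. The smallest was in males on high fat diet, the group with the close pair of replicates, and the largest in males on normal diet. Females had 12.7, 16.7, 13.4 and 16.5 CPM on high fat diet and 24.8, 20.2, 21.5 and 26.2 CPM on normal diet. Males had 16.2, 16.4, 16.6 and 17.4 CPM on high fat diet, a standard deviation of 3.13% of the mean, and 25.9, 27.3, 36.8 and 30.5 CPM on normal diet. The diets lay apart in both sexes. The log2 fold change was -0.86 ± 0.13 in males (adjusted p = 0.000325) and -0.65 ± 0.13 in females (adjusted p = 0.00347). The female call was lost in 2 of 25 other settings, limma on log2(TPM + 1) and on log2(TPM + 0.1). On log2(TPM + 1) Per2 changed by -0.32 (adjusted p = 0.0925). That fit differs from the main one in unit, test and scaling together, and its median change of all genes in females was 0.15. The interaction was 0.21 ± 0.18 for Per2 (adjusted p = 0.66) and -0.43 ± 0.43 for Per1 (adjusted p = 0.725), so no sex difference in the diet change of these genes was shown.

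Per3 (ENSMUSG00000028957.13), which is less needed for rhythm than its paralogs, moved by less. Males had 14.8, 15.9, 16.6 and 15.1 CPM on high fat diet and 25.1, 20.9, 24.4 and 19.2 CPM on normal diet, with no overlap. The log2 fold change was -0.52 ± 0.14 (adjusted p = 0.0258). This call was lost in 6 of 25 other settings, with an adjusted p of up to 0.137. They included each fit on TPM and those without male high fat diet replicate 2 or 4 or male normal diet replicate 1 or 3. Females had 16.5, 19.2, 22.7 and 29.5 CPM on high fat diet and 22.3, 23.9, 25 and 26.1 CPM on normal diet, and the high fat diet libraries reached below and above all normal diet ones. Their log2 fold change was -0.15 ± 0.14 (adjusted p = 0.541), and it turned to 0.06 on log2(TPM + 1).

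Cry1 (ENSMUSG00000020038.11) encodes a cryptochrome, a strong repressor of ARNTL and CLOCK. Females had 3.78, 7.97, 9.95 and 6.95 CPM on high fat diet and 18.9, 25.8, 18 and 18.1 CPM on normal diet. Males had 13.8, 18.8, 18.4 and 18.1 CPM on high fat diet and 15.8, 12.7, 14.2 and 17.6 CPM on normal diet. The female diets lay far apart and the male diets overlapped. The log2 fold change of Cry1 was -1.50 ± 0.22 in females (adjusted p = 0.00035) and 0.20 ± 0.21 in males (adjusted p = 0.587). The difference of these changes was -1.70 ± 0.30 (adjusted p = 0.0112). This interaction was the single call among 8 clock genes, against 0.677% of all genes, and it held in all 24 other settings run, with the adjusted p at most 0.0308. Without female high fat diet replicate 1 it was -1.48 (adjusted p = 0.0038), and with the close male pair averaged -1.65 (adjusted p = 0.0255).

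Cry2 (ENSMUSG00000068742.12), the other cryptochrome, had the smallest standard deviation over the 16 libraries, 0.21 in log2 CPM. Females had 22.4, 22, 24.9 and 25 CPM on high fat diet and 20.7, 20.7, 23.1 and 21.3 CPM on normal diet. Males had 20.3, 25, 24.9 and 21.7 CPM on high fat diet and 30.3, 28.6, 34.3 and 25 CPM on normal diet, where the highest library on high fat diet and the lowest on normal diet differed by less than the rounding shown. The male log2 fold change was -0.36 ± 0.10 (adjusted p = 0.0318). It lost its call in 9 of 25 other settings, with an adjusted p of up to 0.155. They included each fit on TPM, upper quartile factors, no filter, the fit of the 2 male groups alone, and those without male high fat diet replicate 1 or 4 or male normal diet replicate 1 or 3. The female value of 0.14 ± 0.10 had an adjusted p of 0.426. On log2(TPM + 1) and log2(TPM + 0.1) it was called, at 0.34 and 0.38, with a lowest adjusted p of 0.041. The interaction of 0.50 ± 0.15 was not called (adjusted p = 0.141).

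**Figure D2:**
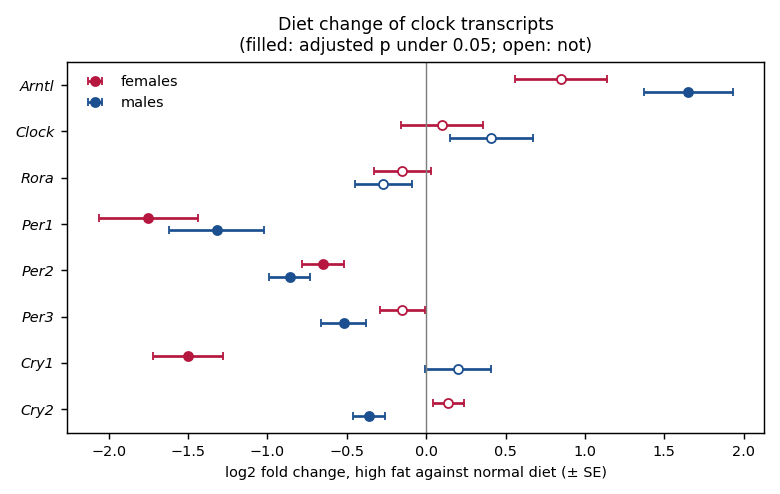
Log2 fold change of each clock transcript on high fat against normal diet (horizontal axis, ± SE), in females and in males; filled points had an adjusted p under 0.05 in edgeR's quasi-likelihood test and open points did not. Cry1 lies at -1.50 in females and 0.20 in males, while Per1 and Per2 lie below 0 and filled in both sexes.

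The sexes were then compared on each diet. On normal diet 2 of 8 clock genes were called, against 15.7% of all genes. Cry2 was 1.38-fold lower in females (log2 difference -0.46 ± 0.10, adjusted p = 0.00642), and its 4 female libraries lay below its 4 male libraries. Per2 was also lower in females (-0.38 ± 0.12, adjusted p = 0.0461), with overlapping libraries, and this call was lost in 16 of 25 other settings with an adjusted p of up to 0.18. Cry1 (18 to 25.8 CPM in females, 12.7 to 17.6 in males) and Rora (49.6 to 76.1 and 78.9 to 89.6) lay apart too. Neither was called (edgeR adjusted p = 0.178 and 0.147). The share of all genes whose sexes lie apart is not given here. On high fat diet 4 of 8 were called, against 20.4% of all genes. Females had 2.25-fold less Arntl (log2 difference -1.17 ± 0.27, adjusted p = 0.00665) and 2.42-fold less Cry1 (-1.28 ± 0.22, adjusted p = 0.000724), without overlap of the sexes for either gene. Per3 was 1.41-fold higher in females (0.49 ± 0.14, adjusted p = 0.022). It was not called without female high fat diet replicate 4 (adjusted p = 0.092), without male high fat diet replicate 4, or with the 2 groups fitted alone. Clock was lower in females (-0.76 ± 0.26, adjusted p = 0.0469), a call that 17 of 25 other settings did not give, with an adjusted p of up to 0.149. Because the contrasts share groups, these sex differences are not independent of the diet changes above.

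Ratios of transcripts within a library do not depend on scaling between libraries. Arntl stands at the opposite phase of the loop from Per2. Their log2 ratio of TPM was -2.92, -1.60, -2.84 and -2.90 in females on normal diet and -1.26, -1.07, -0.43 and -1.39 on high fat diet. In males it was -2.64, -2.81, -2.28 and -2.20 on normal diet and -0.32, 0.30, 0.22 and -0.19 on high fat diet. The 2 normal diet groups had nearly the same mean, -2.56 ± 0.64 (SD, n = 4) in females and -2.48 ± 0.29 in males. On high fat diet the ratio was higher by 1.52 in females and by 2.48 in males, without overlap in either sex. These are descriptions with no test, since the pair was chosen with earlier results known.

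The ratio of Arntl to Nr1d1, the repressor of Arntl, split the sexes. Its log2 value was -3.31 ± 0.62 (SD, n = 4) in males on normal diet and 0.22 ± 0.32 on high fat diet, 3.53 higher and without overlap. In females it was -2.91 ± 0.86 on normal diet and -3.87 ± 0.61 on high fat diet, 0.96 lower in mean and overlapping. Females on high fat diet thus had Arntl and Nr1d1 both above their normal diet means, and males had them on opposite sides. The log2 ratio of Cry1 to Cry2 was 0.33 ± 0.29 in females on normal diet and -1.37 ± 0.56 on high fat diet, without overlap. In males it was -0.55 ± 0.34 and 0.02 ± 0.12, with overlap. The log2 ratio of Per1 to Per2 fell by 1.26 in females and by 0.48 in males in mean, without overlap of the diets in either sex.

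**Figure D3:**
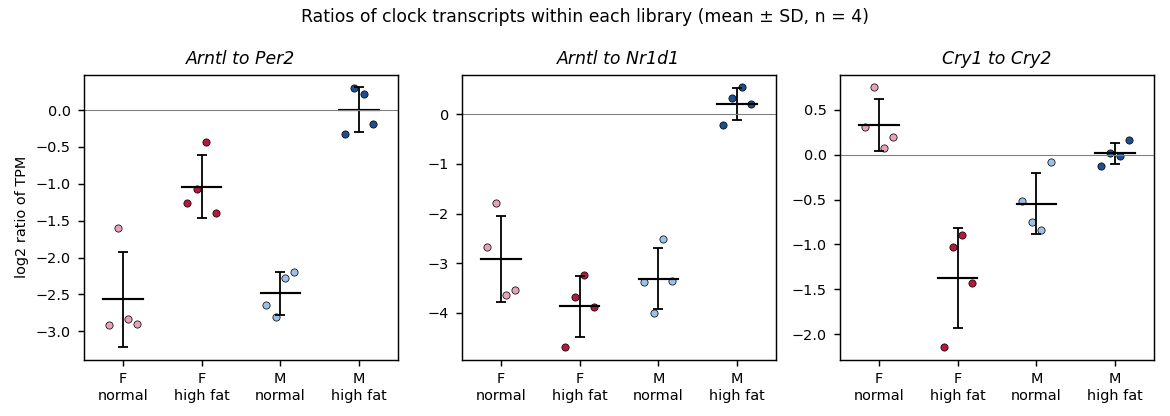
Log2 ratio of TPM of Arntl to Per2, Arntl to Nr1d1 and Cry1 to Cry2 in each library (vertical axes), by group; points are libraries and bars the mean ± SD of 4. The ratio of Arntl to Per2 is higher on high fat diet in both sexes, and that of Arntl to Nr1d1 is near 0 in males on high fat diet and between -4.68 and -1.79 in all females.

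Levels of different genes were compared per length, as TPM. In females on normal diet Cry1 led with 8.25 ± 1.22 TPM (SD, n = 4), and on high fat diet it stood sixth with 3.46 ± 1.18 TPM, while Cry2 led with 8.5 ± 0.7. In males Rora led on both diets, with 9.14 ± 0.951 TPM on normal diet and 8.14 ± 1.86 on high fat diet. Arntl was the lowest gene above Npas2 on normal diet in both sexes, at 0.82 ± 0.302 TPM in females and 1.12 ± 0.393 in males, and its range lay below that of the next gene, Clock in females and Per3 in males. In males on high fat diet Arntl reached 3.58 ± 0.684 TPM, within the range of Per2, and below Cry2 without overlap. Most other neighbours in the order overlapped in range, so their order is not firm.

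Within groups, single libraries moved several clock genes together. Female high fat diet replicate 1 was the lowest of its group for 7 of 8 genes, all but Cry2, and male high fat diet replicate 1 was the lowest for 7 of 8, all but Per1. In the female library Nr1d1 and Dbp were instead the highest of the group, at 59.4 and 99.3 CPM. That library had the largest albumin share of its group, 8.75% of counts, and the male library the smallest, 3.73%. The part of library make-up in these values was not tested. Without the female library the fall of Per2 in females had an adjusted p of 0.0121 and that of Cry1 0.000241. Without the male library the rise of Arntl in males had a log2 fold change of 1.75 (adjusted p = 0.00101).

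Beside the 9 genes, 40 genes of the wider pathway were examined in 4 lists, of which 39 were tested. The lists were chosen with earlier results of these data known, so their shares of called genes are descriptions and no test of enrichment. The medians of these lists are given beside a median of 0.00 in females and 0.01 in males over all genes tested. The first list holds nuclear receptors, PAR bZIP factors, repressors such as Ciart, and Arntl2. It has 11 genes, of which 10 were tested. Rorb had no counts in any of 16 libraries. In females 4 were called, 2 higher and 2 lower (median log2 fold change 0.07), and in males 6, all lower (median -0.62), beside 11.5% and 11.4% of all genes. Called in opposite directions in the sexes were Nr1d1 and Dbp, and the interaction was called for these 2 genes of the list.

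Nr1d1 (ENSMUSG00000020889.12) changed by 1.79 ± 0.21 in females (adjusted p = 7.60e-05) and by -1.91 ± 0.22 in males (adjusted p = 5.68e-05). Dbp, an output gene that the clock drives through E-boxes, changed by 0.70 ± 0.19 in females (adjusted p = 0.0263) and by -1.57 ± 0.20 in males (adjusted p = 0.000115). The female rise of Dbp was lost in 5 of 25 settings, up to an adjusted p of 0.087 without female high fat diet replicate 4.

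Ciart, a repressor of ARNTL and CLOCK, fell by 3.15 ± 0.42 on the log2 scale in males (adjusted p = 0.000364) and by 1.73 ± 0.40 in females (adjusted p = 0.013). Nr1d2, the paralog of Nr1d1, fell by 0.62 ± 0.12 in males (adjusted p = 0.00216) and by 0.40 ± 0.11 in females (adjusted p = 0.0318, lost in 9 of 25 settings, up to 0.348). It moved the same way in both sexes, unlike Nr1d1. Tef, a relative of Dbp, also fell in males. Bhlhe41 fell in males (-1.41 ± 0.39, adjusted p = 0.0258). Its call was lost in 7 of 25 settings, among them the fit with the close pair averaged, up to an adjusted p of 0.076.

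**Figure D4:**
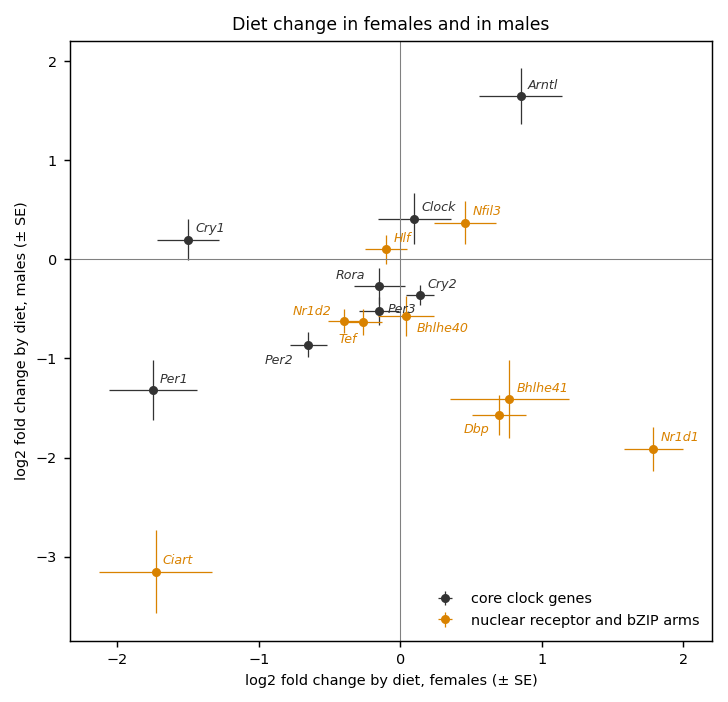
Log2 fold change by diet in females (horizontal axis) against that in males (vertical axis), with ± SE, for 8 core clock genes and 9 genes of the nuclear receptor and bZIP arms (Arntl2 is not drawn). Per1, Per2, Ciart and Nr1d2 lie below 0 on both axes, Nr1d1 and Dbp lie to the lower right, and Cry1 to the upper left.

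Of 13 enzymes that modify PER and CRY proteins and clock cofactors, 2 were called in females and 1 in males, close to the 11.5% and 11.4% called of all genes. Fbxl21, which encodes a ubiquitin ligase subunit for cryptochromes, was higher in both sexes, and the male call was lost in 1 of 25 settings, without male normal diet replicate 4 (adjusted p = 0.0604). Prkaa1, a catalytic subunit of AMP kinase, was lower in females, a call lost in 4 of 25 settings, up to an adjusted p of 0.212, among them both TPM scales and those without female normal diet replicate 1 or 2. The list's median was -0.13 in females and 0.06 in males.

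Of 8 rhythmic liver outputs, 7 were lower in females (median -0.83) and 5 in males (median -0.54), beside 5.76% and 5.36% of all genes, and 0 of 8 were called higher in either sex. Lpin1, a phosphatidate phosphatase gene, had 25.8, 36.5, 27.5 and 37.1 CPM in females on high fat diet and 322, 217, 250 and 433 CPM on normal diet. In males it had 53.4, 120, 123 and 77.5 CPM on high fat diet and 419, 235, 335 and 292 CPM on normal diet. The diets lay apart in both sexes, with log2 fold changes of -3.27 ± 0.29 in females (adjusted p = 1.20e-05) and -1.78 ± 0.27 in males (adjusted p = 0.000752). Usp2, a ubiquitin protease with a strong daily rhythm, fell by 1.56 ± 0.23 on the log2 scale in females (adjusted p = 0.000493) and by 1.61 ± 0.23 in males (adjusted p = 0.00036). Por, the electron donor of cytochrome P450 enzymes, was lower in both sexes in every setting run. Nampt, an enzyme of NAD synthesis, was lower in females in every setting run. Its male call was lost in 9 of 25 settings, up to an adjusted p of 0.0783, among them both TPM scales and those without male high fat diet replicate 1, 3 or 4 or male normal diet replicate 1, 3 or 4. Other calls in this list were less firm. In females the call of Tspan4 was lost in 15 of 25 settings (up to 0.12), that of Cdkn1a in 13 (up to 0.167) and that of Alas1 in 8 (up to 0.0888). In males the call of Wee1, a cell cycle kinase gene, was lost in 15 of 25 (up to 0.117). On both TPM scales all 4 of these calls were lost.

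Glucocorticoid and CREB target genes were listed because Per1 is one of them. Of 8 tested, 6 were called in females, 4 lower and 2 higher (median -0.47), and 2 in males, both lower (median -0.24), beside 11.5% and 11.4% of all genes in either direction. Fkbp5 fell by 1.42 ± 0.16 on the log2 scale in females (adjusted p = 4.18e-05) and by 1.69 ± 0.16 in males (adjusted p = 5.91e-06), and its diets lay apart in both sexes. Tsc22d3 fell by 1.55 ± 0.23 in females (adjusted p = 0.000477) and by 1.14 ± 0.23 in males (adjusted p = 0.00405). Both genes are known to be induced by glucocorticoids. Zbtb16 fell in females (-2.74 ± 0.37, adjusted p = 0.000383). Sgk1 was lower in females, a call lost in 8 of 25 settings (up to 0.203).

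The genes called higher in this list were the immediate early genes Fos and Nr4a1, both in females. Fos had 2.33, 6.28, 2.36 and 4.32 CPM in females on high fat diet and 0.371, 0.582, 0.329 and 0.329 CPM on normal diet (3.23 ± 0.44, adjusted p = 0.000187). Its diets lay apart in females and overlapped in males (1.22 ± 0.41, adjusted p = 0.0619). Nr4a1 had a log2 fold change of 2.08 ± 0.62 in females (adjusted p = 0.0407), with overlapping diets, and lost its call in 9 of 25 settings (up to 0.131). In males it was 1.87 ± 0.65 (adjusted p = 0.0729). Sik1, a CREB target, was not called, at 0.54 ± 0.24 in females (adjusted p = 0.153) and 0.73 ± 0.24 in males (adjusted p = 0.0596). The values of Nr4a1 and Sik1 are given after they were seen.

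The genes whose pattern lay nearest to that of a clock gene were found by the root mean square difference of gene-centred log2 CPM over the 16 libraries. For Arntl, whose own standard deviation was 0.88, they were Castor2 and St5 (0.36 each) and Cldn2 (0.39), and its mirror image was nearest to Insig1 (0.42), Fam98c (0.46) and Paqr4 (0.48). For Per1 (1.03) the nearest was Tsku (0.39), for Per2 (0.44) Adarb1 (0.16), and for Cry1 (0.69) Dcun1d3 (0.25). Among the 3 nearest to Per3 (0.31) was a clock output gene, Tef (0.18). For Clock (0.51) the nearest was Adap2 (0.22) and for Cry2 (0.21) Rhot2 (0.12). None of the 3 nearest genes of Arntl, Per1, Per2 or Cry1 was itself a clock gene of the lists used here.

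By the older annotation at hand, exons of Arntl, Cry2 and Rora each overlap those of another gene on the other strand. Exons of Nr1d1 overlap those of Thra, and exons of Dbp those of Sphk2, also on the other strand. Of the other pathway genes with calls given above, Usp2, Tef, Bhlhe41, Alas1, Cdkn1a and Tspan4 have such an overlap too. Whether counting used the strand is not given in the sources used here, so reads of these pairs cannot be told apart.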

How the data were processed

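RNA of 16 liver samples was sequenced (NEBNext Ultra libraries, NovaSeq), per the labels' protocols. The authors used STAR and RSEM on GRCm39, per the submitters' processing notes. They deposited expected counts, of which 4.89% of entries were not whole, and TPM. Strand setting, annotation release and tool versions are not given in the sources used here. Symbols were matched by Ensembl identifier without its version (51487 of 78317 genes, 98.97% of counts). The labels number replicates without saying that each is another animal, so p-values measure the spread between these samples, which may be technical.

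Expected counts were rounded. Filtering by filterByExpr (edgeR 4.0.16 in R 4.3.3) left 14781 genes, which held 99.94% of counts. Libraries were scaled by TMM, and the robust quasi-likelihood test was fitted to all 16 libraries with 1 mean per group and 5 contrasts. Tests are two-sided. Standard errors are the log2 fold change over the square root of F. Alternatives used limma 3.58.1, DESeq2 1.42.0, other scalings, no filter, fewer libraries and a replicate block. On simulated data for the diet contrast in females with 14508 genes, 91% of 2-fold changes were recovered, and 4.06% of calls were false. There 100 tested genes were changed 2-fold and 98 by 2 on the log2 scale, against 1700 called in the data. The simulated libraries were drawn independently and the groups had no other difference, so these rates need not hold for the data or for single genes. Named genes were the 9 members, pathway genes called for diet (with values for the 6 of smallest p per diet contrast), Nr1d1, Nr1d2, Dbp and Bhlhe41 in any case, and the 3 genes of nearest pattern. 1 pathway gene is not reported here and is in none of the list counts. The members and lists were chosen with earlier results of these data known. Intervals are not given for counts, and the floor of 3 counts covers counting error only.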

Additional observations from a re-analysis of the deposited data

Results flagged for a closer look

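The diet change differed between the sexes, by the interaction of edgeR's quasi-likelihood fit, for 3 genes of the clock lists. They were 1 of 8 clock genes and 2 of 39 other pathway genes tested, beside 0.677% of all genes. All lists were chosen with earlier results of these data known. Cry1 had an interaction (change in females minus change in males, log2) of -1.70, with a fall in females. Nr1d1 had 3.71 and Dbp 2.27, each higher in females and lower in males on high fat diet. In no setting run was any of the 3 calls lost.

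Of 32 sets of 4 libraries (8 clock genes in 4 groups), 2 held a library far from the other 3 by Dixon's test, and chance gives about 1 in 20. Both concern Cry1. In female normal diet replicate 2 its level was 25.8 CPM and in the rest of that group 18 to 18.9 CPM, and without it the female fall of Cry1 was -1.35 (adjusted p = 0.00155). In male high fat diet replicate 1 its level was 13.8 CPM, and in the rest of that group 18.1 to 18.8 CPM.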

How the results depend on the processing

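Between 24 and 25 other settings were run for each gene and contrast. The count of clock genes called for diet in females was 3 and ran from 3 to 4 with 1 library left out. In males it was 5, with 3 on log2(TPM + 1) and on log2(TPM + 0.1), and 3 to 5 with 1 library left out. The interaction count was 1 in every setting. Between the sexes on normal diet it was 2, with 1 under upper quartile factors, without a filter, on either TPM scale and after averaging the close male pair (high fat diet replicates 2 and 3), and 1 to 2 with 1 library left out. On high fat diet it was 4, with 2 when the 2 groups were fitted alone and 2 to 4 with 1 library left out. Of 39 pathway genes tested, 19 were called for diet in females (12 to 19 with 1 library left out). In males 14 were called (11 to 15, and 18 by the DESeq2 Wald test). For the interaction 2 were called (2 to 5, and 7 by the DESeq2 Wald test). Between the sexes on normal diet 5 were called (2 to 7, and 3 on either TPM scale), beside 15.7% of all genes. On high fat diet 10 were called, beside 20.4% of all genes. That count was 8 to 11 with 1 library left out, 14 by the DESeq2 Wald test and 15 with a replicate block. The split of the pathway calls for diet in females was 5 higher and 14 lower by TMM and 8 higher and 8 lower on either TPM scale. The median change of all genes in females was 0.15 on log2(TPM + 1) and 0.22 on log2(TPM + 0.1). Signs turned only for values that were not called: Clock in females without female high fat diet replicate 3 (-0.13, with a highest value of 0.28 when 1 library was left out), Per3 in females (0.06 on log2(TPM + 1), 0.07 on log2(TPM + 0.1)) and Rora in females (0.07 and 0.08). The log2 ratio of Arntl to Per2 differed between the diets by 1.32 to 1.85 in females and 2.37 to 2.59 in males with 1 library left out. With a replicate block the count in females was 4, Arntl being added (adjusted p = 0.0482), and that between the sexes on normal diet 3. The labels do not say that replicate numbers pair libraries across groups. Of 24 same-numbered pairs of libraries across groups, 0 had deviations correlated above 0.1 over the 1000 most variable genes. Of 16 libraries, 1 correlated best with its own number. Such correlations cannot exclude a pairing. The cause of the changes between settings was not tested. Arntl had 36 to 272 counts per library and Npas2 at most 16, which limits what can be said of them.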
